A study of Arabidopsis thaliana with 24 samples.

Results

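The transcriptome of *gnat2* was compared with that of WT after 2 h of darkness (D), across all 27826 transcripts of the array. The comparison rested on the 8 arrays that the labels place in D, 4 of WT and 4 of *gnat2*, out of 24 arrays in the whole series. Both genotypes were grown on soil in short days (8 h of light at 120 µmol per square metre and second, 23 °C, 50% humidity) for 4.5 weeks, and the darkness began 2 h after the onset of light and interrupted the light period. WT was the ecotype Col-0, and *gnat2* was a T-DNA knockout of *GNAT2* (SALK_033944), a single insertion line, so that an effect of this line cannot be told apart from an effect of *GNAT2*. Whole rosettes of 4 biological replicates per genotype were hybridized to 1 Affymetrix Arabidopsis gene array each. The 8 arrays from plants kept in growth light (C, 120 µmol) and the 8 from plants in high light (HL, 1000 µmol) are used here only to see where D differed from them. Values are on the log2 scale, so that a difference of 1 is a 2-fold difference, and every difference is given as *gnat2* minus WT.

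GNAT2 is a plastid acetyltransferase that modifies lysines and N-termini of chloroplast proteins, and plants without it cannot carry out state transitions, the movement of light-harvesting antenna between the photosystems. When light is withdrawn, leaves stop assimilating carbon, draw on starch and sugars, and switch on a starvation programme. Phytochrome falls back to its inactive form, which releases the PIF transcription factors that drive elongation growth, and genes of the circadian clock keep cycling while losing their light input.

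The label of the genotype was checked first with the knocked-out gene. *GNAT2* (AT1G32070, listed as *NSI* in RefSeq) was at 6.18, 5.31, 5.72 and 6.09 on the 4 WT arrays and at 1.53, 1.94, 1.78 and 1.73 on the 4 *gnat2* arrays in D. The groups were far apart and each array fitted its label. The difference was -4.08 (standard error 0.19, adjusted p = 7.24e-13 from limma). The rosette was checked with marker genes: the 4 leaf markers had a mean log2 value between 8.85 and 9.09 on the 8 arrays, whereas the 7 floral markers lay between 1.2 and 1.42 and the 5 root markers between 1.01 and 1.35, near the lower quartile of the table (1.35). Of the 4 leaf markers, 1 lay below the median of the table. The WT arrays were less alike than the *gnat2* arrays, with a Pearson r across transcripts, which are not independent, of 0.9798 to 0.9827 against 0.9871 to 0.9914, and a median SD per transcript of 0.235 against 0.169. One array stood apart in its number format. On *gnat2* D replicate 1 only 1.66% of the values were whole multiples of 1/1024, against 55% on each of the other 23 arrays, and its sorted values differed from theirs by up to 0.00191. Counts with and without this array are given below.

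After darkness, 1090 transcripts (3.92% of those tested) passed an adjusted p under 0.05, and 5241 (18.8%) passed before adjustment. Of these, 564 (2.03% of those tested) were higher and 526 (1.89%) lower in *gnat2*. Most differences were small, with a median size of 0.607 among the 1090, and 256 of them had a mean below the table's median of 2.35, where a signal above background was not shown. A difference of more than 2-fold was reached by 81 transcripts (0.291%), and these were unevenly split, with 65 higher (0.234%) and 16 lower (0.0575%) in *gnat2*. The 4 values of one genotype lay wholly outside the 4 of the other in 914 of the 1090 and in 2750 (9.88%) of all transcripts. The spread was estimated from all 24 arrays, and the count was 143 when only the 8 D arrays entered the fit. It was 600 without *gnat2* D replicate 1, 623 without replicate 3 and 585 without replicate 4, and 351 transcripts were called in the full fit and in each of the 8 fits that left out 1 D array. Below, a call is said to be kept in as many of these 8 refits as it passed.

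**Figure D1:**
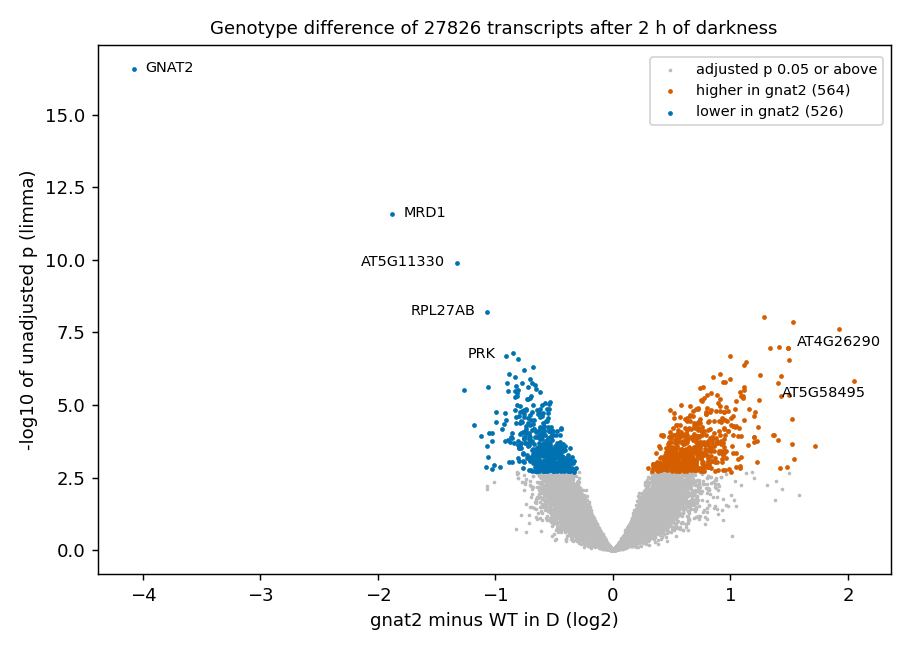
Difference between *gnat2* and WT in D (x axis, log2) against -log10 of the unadjusted p from limma (y axis) for each of 27826 transcripts, with the 564 higher and 526 lower ones in colour. *GNAT2* lies alone at -4.08, and beyond a size of 1 the higher transcripts (65) outnumber the lower ones (16).

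*PRK* (AT1G32060), which encodes phosphoribulokinase of the Calvin-Benson cycle, is the gene next to *GNAT2*, and it was lower in *gnat2*. It was at 8.78, 8.89, 9.13 and 9.01 in WT and at 7.95, 7.75, 8.17 and 8.29 in *gnat2*, so that the groups did not overlap. The difference was -0.91 (standard error 0.13, adjusted p = 0.00041), kept in 8 of 8 refits, and stood beside -1.0 in C and -1.45 in HL. The annotations of *PRK* and *GNAT2* overlap at their ends in RefSeq, so that its level and an effect of the nearby insertion cannot be told apart. Of the 20 genes within 10 places of *GNAT2*, 14 were measured, and *PRK* was the one called. The other 13 differed by -0.22 to 0.72. Among these, *LrgB* (AT1G32080), the gene on the other side of *GNAT2* and a glycolate and glycerate transporter of the plastid envelope, had a difference of 0.36 (standard error 0.12, adjusted p = 0.087), which did not pass.

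**Figure D2:**
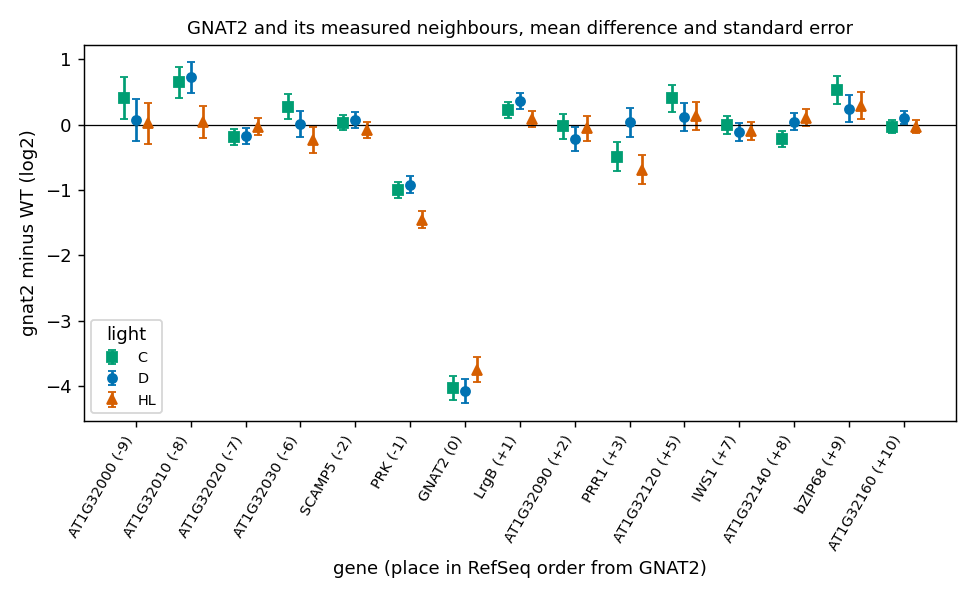
Difference between *gnat2* and WT (y axis, log2, bars are standard errors from limma) for *GNAT2* and its 14 measured neighbours, in chromosomal order, in C, D and HL. *GNAT2* and *PRK* lie below 0 in each light, at -4.08 and -0.91 in D, and the other neighbours lie between -0.22 and 0.72 in D.

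Beside *GNAT2*, the transcript with the largest fall was *MRD1* (AT1G53480). It was at 3.32, 3.76, 3.71 and 3.20 in WT and at 1.72, 1.48, 1.85 and 1.43 in *gnat2*, a difference of -1.88 (standard error 0.15, adjusted p = 3.6e-08). AT5G11330 was at 6.65, 6.51, 6.71 and 6.56 in WT and at 5.30, 4.84, 5.48 and 5.50 in *gnat2*, a difference of -1.33 (adjusted p = 1.2e-06). Both were also called in C (-1.19 and -1.49) and in HL (-1.60 and -1.51), so that they were not peculiar to darkness. The same held for AT4G21650 (-1.27, with -1.11 in C and -1.13 in HL). *LTP2* (AT2G38530), a lipid transfer protein of the epidermis, was at 4.34, 4.23, 4.1 and 4.66 in WT and at 3.32, 2.99, 3.10 and 3.19 in *gnat2*. Its difference of -1.18 (standard error 0.24, adjusted p = 0.0077) was matched by -1.16 in C, while the -0.71 in HL was not called. These 4 calls were each kept in 8 of 8 refits.

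Other falls were called in D alone. *ORA59* (AT1G06160), an ERF transcription factor at which jasmonate and ethylene signals meet, was at 5.32, 3.46, 4.47 and 3.82 in WT and at 3.41, 3.35, 2.82 and 3.19 in *gnat2*. The groups came close, at 3.46 and 3.41, and did not overlap. The difference was -1.08 (standard error 0.25, adjusted p = 0.017), with 0.02 in C and -0.29 in HL, where the means of both genotypes lay between 1.06 and 1.35. Its call was lost without *gnat2* D replicate 3 (adjusted p = 0.060). *KIN2* (AT5G15970), a gene induced by cold and abscisic acid, had values of 7.64, 8.14, 7.44 and 7.90 in WT and 7.05, 7.43, 6.44 and 6.01 in *gnat2*, with the nearest values at 7.44 and 7.43. Its difference was -1.05 (standard error 0.22, adjusted p = 0.010), and the differences of -0.70 in C and -0.47 in HL were not called. *CYP71B22* (AT3G26200), a cytochrome P450, was lower by a difference of -1.12 (adjusted p = 0.011). The *KIN2* and *CYP71B22* calls were kept in 8 of 8 refits, with the largest adjusted p, 0.049, for *CYP71B22* without *gnat2* D replicate 1. For *ORA59*, *KIN2* and *CYP71B22*, the test of D against C or HL did not pass, so that a difference between lights was not shown.

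AT2G28720 was lower by -1.06 (adjusted p = 0.0017) and AT4G18205 by -1.03 (adjusted p = 0.045). The latter call was kept in 1 of 8 refits, without WT D replicate 2, and rested most on WT D replicate 1, which lay at 6.34 against 5.54 to 5.57 on the other WT arrays (adjusted p = 0.131 without it). *RPL27AB* (AT1G23290), a protein of the large cytosolic ribosomal subunit, was at 6.37, 5.98, 6.46 and 6.42 in WT and at 5.25, 5.19, 5.23 and 5.27 in *gnat2*. The *gnat2* values were nearly equal and all below WT. The difference was -1.07 (standard error 0.12, adjusted p = 4.3e-05), with -0.85 in C, which was called, and -0.44 in HL, which was not. Close paralogs exist for ribosomal proteins, so that their separate levels are uncertain.

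The largest rise in a protein-coding transcript was that of AT4G26290. It was at 2.71, 2.04, 2.36 and 2.47 in WT and at 4.78, 3.30, 4.67 and 4.50 in *gnat2*, with replicate 2 the lowest of the *gnat2* arrays and still above WT. The difference was 1.92 (standard error 0.24, adjusted p = 9.4e-05), and it was kept in 8 of 8 refits. AT1G72060 had a like arrangement, with 2.15, 1.97, 2.22 and 2.68 in WT against 3.87, 2.78, 4.19 and 4.14 in *gnat2* (difference 1.49, adjusted p = 0.00050). In C and HL the differences of AT1G72060 were 0.01 and 0.13.

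AT1G15010 was at 2.48, 1.65, 2.05 and 1.81 in WT and at 4.62, 3.11, 2.96 and 2.76 in *gnat2*. The groups did not overlap, although *gnat2* replicate 1 was well above the other 3. The difference was 1.37 (adjusted p = 0.011) and 0.95 without this array (adjusted p = 0.032). *RVE1* is described below with the clock genes. AT1G10690 was at 3.14, 3.95, 2.88 and 3.51 in WT and at 4.77, 4.72, 4.59 and 4.77 in *gnat2*, where the 4 values were close together (difference 1.34, standard error 0.18, adjusted p = 0.00028). AT5G23130 was higher by 1.25 (adjusted p = 0.0011), with 0.21 in C and -0.03 in HL, and AT1G26720 by 1.43 (adjusted p = 0.0023), with 0.73 in C and 0.85 in HL.

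Among the remaining large rises, AT1G53887 was higher by 1.5 (adjusted p = 0.0023), AT3G44140 by 1.25 (adjusted p = 0.0028) and AT5G19570 by 1.23 (adjusted p = 0.0084), each kept in 8 of 8 refits. AT3G44140 was called in C as well (1.02). *scpl23* (AT2G24010), which encodes a serine carboxypeptidase-like protein, was at 1.11, 0.88, 0.93 and 1.23 in WT and at 2.29, 2.39, 2.55 and 3.00 in *gnat2*. Its difference of 1.52 (adjusted p = 0.015) and that of AT1G62620 (1.72, adjusted p = 0.017) were lost without *gnat2* D replicate 4, with an adjusted p of 0.057 for each. AT5G14820 differed by 1.48 (adjusted p = 0.041), but its WT values spread from 2.12 to 4.47, and its call was kept in 2 of 8 refits, those without WT D replicate 1 or 4. Most of these rising genes carry no name in RefSeq, and no role is given for them here.

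**Figure D3:**
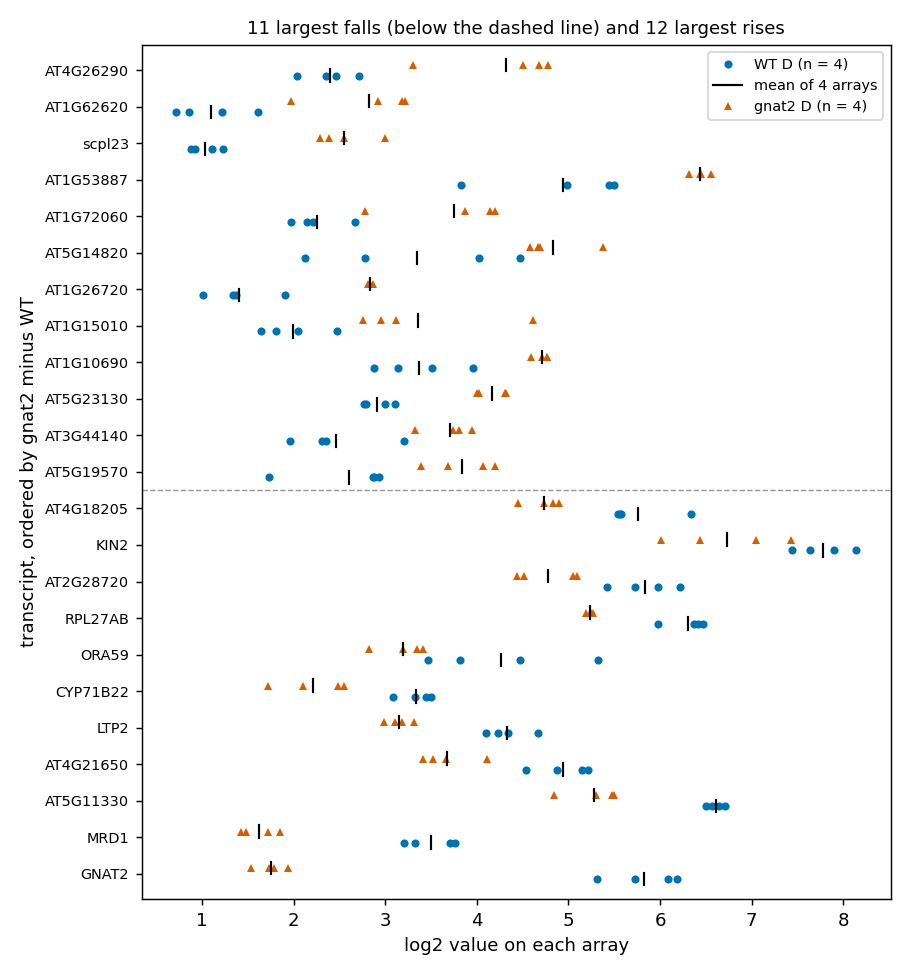
Log2 value on each of the 4 WT arrays (circles) and 4 *gnat2* arrays (triangles) in D for the 11 protein-coding transcripts with the largest fall and the 12 with the largest rise, with the mean of each group as a line. They were chosen among called transcripts whose groups do not overlap, and the *gnat2* values are as tight as 2.81 to 2.86 for AT1G26720 and as wide as 2.76 to 4.62 for AT1G15010.

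The genes of the PIF and shade pathway that passed the test were lower in *gnat2*. Of the 16 on the list, 0 were higher and 3 lower, against 2.03% and 1.89% of all transcripts, and 15 of the 16 differences were negative with a median of -0.42 (over all transcripts -0.02). *PIL1* (AT2G46970), a bHLH factor that is among the fastest shade-induced genes, was at 2.74, 2.46, 2.2 and 2.55 in WT and at 1.66, 1.39, 1.74 and 1.84 in *gnat2*. The groups did not overlap, and the difference was -0.83 (standard error 0.15, adjusted p = 0.0042), kept in 8 of 8 refits. In WT its mean was 1.76 in C, 1.85 in HL and 2.49 in D, whereas in *gnat2* it was 1.65, 1.69 and 1.66. All of these means but that of WT in D lay below the table's median of 2.35, where a signal above background was not shown. *IAA19* (AT3G15540), an auxin-induced AUX/IAA repressor and PIF target, was at 2.63, 2.52, 3.18 and 3.28 in WT and at 2.25, 2.21, 2.1 and 2.2 in *gnat2*. Its difference was -0.71 (adjusted p = 0.015) and was lost without WT D replicate 3 or 4 (adjusted p up to 0.053). *HB-2* (AT4G16780), the shade-induced homeodomain factor ATHB2, differed by -0.65 (adjusted p = 0.037), with 2 *gnat2* arrays, at 5.09 and 5.11, above the lowest WT array, at 5.05. Its call was kept in 3 of 8 refits, those without WT D replicate 2 or *gnat2* D replicate 1 or 3.

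Of the 5 PIF genes on this list, 0 passed. *PIF5* differed by -0.07, *PIF4* by -0.14, *PIF1* by -0.02, *PIF7* by -0.18 and *PIF3* by -0.27, with adjusted p from 0.366 to 0.966. Among their targets that did not pass, *YUC9*, an enzyme of auxin synthesis, differed by -1.02 (standard error 0.32, adjusted p = 0.078) and *HFR1*, a bHLH protein that restrains PIFs, by -1.08 (standard error 0.37, adjusted p = 0.105). The spread in WT was large for *YUC9*, from 2.15 to 4.29. None of the 16 passed the test of D against C or HL, and the medians were -0.21 in C and -0.15 in HL.

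The AUX/IAA family, taken as a whole after values had been seen, showed 0 of 26 higher and 4 lower (15.4%, against 3.92% of all transcripts). Because the family was chosen with values in view, this share cannot show an excess. There were 23 negative differences, with a median of -0.21. Among the 4 was *IAA19*, already counted on the PIF and shade list. *IAA9* (AT5G65670) was at 7.56, 7.44, 7.51 and 7.74 in WT and at 7.11, 7.08, 7.14 and 7.13 in *gnat2*. The 2 ranges were narrow and apart, and the difference of -0.45 (standard error 0.09, adjusted p = 0.0087) was kept in 8 of 8 refits. *IAA28* (-0.60, adjusted p = 0.021) and *IAA16* (-0.50, adjusted p = 0.024) were also lower, and their calls were kept in 5 and 2 of 8 refits, with the largest adjusted p, 0.0638 and 0.0621, without *gnat2* D replicate 4 and 2. Alpha-expansins, proteins that loosen cell walls, were likewise taken as a family after values had been seen. Of 24, 2 were higher and 2 lower (16.7%, against 3.92% of all transcripts), which again cannot show an excess. *EXPA6* (AT2G28950) was at 6.53, 6.54, 6.42 and 6.42 in WT and at 5.47, 5.26, 5.98 and 5.63 in *gnat2* (difference -0.89, standard error 0.15, adjusted p = 0.0019), and *EXPA1* (AT1G69530) differed by -0.72 (adjusted p = 0.027, kept in 4 of 8 refits, and 0.0963 without WT D replicate 3). The 2 higher ones, *EXPA24* (0.53) and *EXPA7* (0.43), had means near or below the lower quartile of the table in WT.

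In the clock, opposite changes were found in related MYB factors. Of 30 clock genes, 1 was higher and 2 lower, with a median of 0.08. *RVE1* (AT5G17300), a morning-phased MYB factor that links the clock to auxin synthesis, was at 3.08, 3.36, 2.66 and 3.45 in WT and at 4.33, 4.48, 4.28 and 4.29 in *gnat2*. The *gnat2* values were all above WT, by a difference of 1.21 (standard error 0.23, adjusted p = 0.0044). The differences were 0.52 in C and -0.34 in HL, and D did not pass the test against HL (adjusted p = 0.051). *LHY* (AT1G01060), a core morning repressor, was at 3.27, 3.45, 3.18 and 3.29 in WT and at 2.34, 2.43, 2.33 and 2.41 in *gnat2*. With both groups so tight, the difference of -0.92 (standard error 0.17, adjusted p = 0.0045) stood clear, beside -0.72 in C and 0.03 in HL. Both calls were kept in 8 of 8 refits. Its close partner *CCA1* differed by 0.32 (standard error 0.18, adjusted p = 0.358). *CDF1* (AT5G62430), a DOF repressor of flowering, was lower by -0.64 (adjusted p = 0.032), with overlapping groups and a call kept in 4 of 8 refits (0.101 without *gnat2* D replicate 2). *PRR5*, an evening-side repressor, had a difference of 0.86 that did not pass (standard error 0.39), and WT replicate 2 lay at 7.65 against 5.04 to 5.45 on the other 3 WT arrays.

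Of 20 photoreceptors and light-signalling genes, 0 were higher and 2 lower, with a median of -0.04. *CRY2* (AT1G04400), a blue-light receptor, was at 7.97, 7.40, 7.53 and 7.48 in WT and at 7.15, 7.16, 7.14 and 6.95 in *gnat2* (difference -0.50, adjusted p = 0.037). *PHOT1* (AT3G45780), a phototropin, differed by -0.34 (adjusted p = 0.0499). The groups did not overlap in either gene, yet the calls were kept in 2 and 1 of 8 refits, with an adjusted p up to 0.119 for *CRY2* without WT D replicate 1 and 0.146 for *PHOT1* without *gnat2* D replicate 2.

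Of 25 dark-inducible and starvation genes, 1 was higher and 0 lower (4.0%, near the 3.92% of all transcripts), with a median of 0.03. *DIN1* was at 11.04, 10.18, 10.75 and 10.53 in WT and at 10.81, 9.94, 10.46 and 10.41 in *gnat2* (difference -0.22, standard error 0.23), and *ASN1*, the dark-induced asparagine synthetase, differed by -0.11 (standard error 0.19). The groups overlapped in both genes. The 1 call was *BT2* (AT3G48360), a BTB scaffold protein repressed by sugar, which in WT had a mean of 1.64 in C and 9.33 in D. In D it was at 9.39, 9.42, 9.41 and 9.10 in WT and at 9.96, 9.90, 9.97 and 9.74 in *gnat2*, a difference of 0.56 (standard error 0.14, adjusted p = 0.026). It was lost without WT D replicate 4, the lowest array (adjusted p = 0.078), and without *gnat2* D replicate 1 or 3. Of 33 starch genes, 1 was higher and 0 lower (3.03%, below the share of all transcripts). The 1 call was *SS2* (AT3G01180), a starch synthase (0.53, adjusted p = 0.032, kept in 3 of 8 refits).

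In the chloroplast, the Calvin-Benson cycle had calls in both directions, with 2 of 22 genes higher and 3 lower and a median of 0. This was 22.7%, against 3.92% of all transcripts. Beside *PRK*, *CP12-1* (AT2G47400), the small protein that binds and inactivates PRK and GAPDH in the dark, was lower. It was at 10.37, 10.22, 10.51 and 10.29 in WT and at 9.99, 9.86, 9.92 and 9.84 in *gnat2*. The groups did not overlap, and the difference was -0.45 (standard error 0.10, adjusted p = 0.011), kept in 8 of 8 refits. *GAPA* (AT3G26650), a subunit of the same GAPDH, was lower by -0.41 (adjusted p = 0.035), kept in 2 of 8 refits with an adjusted p up to 0.104 without WT D replicate 3. These 3 genes encode partners of 1 complex. The level of *PRK* cannot be told apart from an effect of the nearby insertion, and a change of the complex was not tested. In contrast, *PGK1* (AT3G12780), the phosphoglycerate kinase of the plastid, was higher, with 9.62, 10.05, 9.66 and 9.94 in WT and 10.10, 10.29, 10.44 and 10.42 in *gnat2* (difference 0.49, adjusted p = 0.012). The plastid aldolase gene listed as *PDE345* (AT2G01140) was higher by 0.67 (adjusted p = 0.019), a call lost without WT D replicate 1 (adjusted p = 0.064).

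Chlorophyll synthesis had 2 of 20 genes higher and 0 lower. *CHLM* (AT4G25080), the magnesium protoporphyrin methyltransferase, was at 6.77, 7.34, 7.21 and 7.44 in WT and at 7.73, 7.51, 8.02 and 8.02 in *gnat2* (difference 0.63, adjusted p = 0.019, lost without WT D replicate 1 or *gnat2* D replicate 3 or 4). *CH1* (AT1G44446), chlorophyllide a oxygenase, which makes chlorophyll b, was higher by 0.48 (adjusted p = 0.024, kept in 3 of 8 refits). Of 8 genes of state transitions, the process that *gnat2* lacks, 2 were higher and 0 lower. *STN8* (AT5G01920), the kinase that phosphorylates photosystem II core proteins, was higher by 0.45 (adjusted p = 0.041), and *PSAH-1* (AT3G16140), a subunit of photosystem I where the mobile antenna docks, by 0.37 (adjusted p = 0.034). These calls were kept in 2 and 3 of 8 refits. Of the 8 genes, 0 were called without *gnat2* D replicate 1, 3 or 4 or WT D replicate 1 or 3. Of 21 antenna genes 1 was called (4.76%, near the share of all transcripts), *CAB2* (AT1G29920), lower by -0.55 (adjusted p = 0.042). Since the *LHCB1* genes are nearly identical and its values lay between 1.16 and 2.00, its level is uncertain. Of 8 plastid sigma factors and GLK genes, a group formed after values had been seen, *SIG2* (0.45, adjusted p = 0.032) and *GLK2* (0.34, adjusted p = 0.042), which drive transcription for the chloroplast, were higher and kept in 2 and 1 of 8 refits.

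Of 10 genes listed as ACC synthases, the enzymes that commit to ethylene, 3 were higher and 0 lower, in a group formed after values had been seen. This was 30.0%, against 3.92% of all transcripts, which for a group so formed cannot show an excess. Of the 10, 7 had a mean below the table's median. *ACS9* (AT3G49700) was at 1.16, 1.19, 1.07 and 1.01 in WT and at 2.08, 2.2, 1.45 and 2.48 in *gnat2* (difference 0.95, standard error 0.18, adjusted p = 0.0044, kept in 8 of 8 refits). Its WT values lay below the lower quartile of the table, so that a level above background was not shown for WT. *ACS11* (0.75, adjusted p = 0.047) and *ACS12* (0.52, adjusted p = 0.041), the latter an aminotransferase in spite of its name, were kept in 3 and 1 of 8 refits. Jasmonate genes had 0 of 29 called, glucosinolate genes 0 of 21, flavonoid genes 0 of 16, heat shock genes 0 of 10 and galactinol and raffinose genes 0 of 6, by limma. At an unadjusted p under 0.05 the counts were 5, 3, 1, 0 and 0. The glucosinolate count leaves out *UGT74C1* (AT2G31790), which RefSeq does not list under this name. It was higher in *gnat2* in D by 0.73 (adjusted p = 0.0040 from limma). Of 16 salicylate and senescence genes 1 was higher, *SARD1* (AT1G73805), an activator of salicylate synthesis (0.94, adjusted p = 0.046, kept in 2 of 8 refits), and of 12 cold genes 1 was lower, *KIN2*. These single calls were 6.25% and 8.33% of their short lists.

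Of 37 cytosolic ribosomal protein genes, 0 were higher and 4 lower (10.8%, against 3.92% of all transcripts), with 20 negative differences and a median of 0. The 37 were found by a match to RefSeq names, and members of the family named otherwise were not counted. Beside *RPL27AB*, these were *PFL* (AT1G22780), a protein of the small subunit (-0.67), *RPL23AB* (-0.62) and *RPL23AA* (-0.53), kept in 5, 2 and 3 of 8 refits with an adjusted p of 0.0868 for *PFL* without *gnat2* D replicate 1, 0.141 for *RPL23AB* without *gnat2* D replicate 1 and 0.115 for *RPL23AA* without WT D replicate 3. Of 13 genes of ribosome assembly in the nucleolus 1 was called (7.69%). *NAP57* (AT3G57150), the dyskerin-type pseudouridine synthase, was at 4.2, 4.57, 5.19 and 4.47 in WT and at 3.92, 4.05, 3.96 and 3.90 in *gnat2* (difference -0.65, standard error 0.14, adjusted p = 0.0095, kept in 8 of 8 refits). Of 12 replication genes 1 was called (8.33%), *CDC6*, which licenses origins and was higher (0.65, adjusted p = 0.025, kept in 4 of 8 refits). Aminoacyl-tRNA synthetases, also found by a match to RefSeq names, had 0 of 8 called, also before adjustment. Synthetases named otherwise were not counted.

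Of 7 stomatal markers, 0 were higher and 2 lower in *gnat2* (28.6%, against 3.92% of all transcripts). *KAT1* (AT5G46240), the inward potassium channel of guard cells, was at 6.10, 6.13, 6.74 and 6.44 in WT and at 5.31, 5.10, 5.40 and 5.89 in *gnat2*. The groups did not overlap, and the difference was -0.93 (standard error 0.19, adjusted p = 0.0074), kept in 8 of 8 refits, beside -0.15 in C and -0.25 in HL. *MYB60* (AT1G08810), a guard cell MYB factor, was lower by -0.68 (adjusted p = 0.034), kept in 2 of 8 refits with 0.110 without *gnat2* D replicate 2. The other 5 did not pass. Of the 7 differences in D, 5 were negative and 2 positive, and the median was -0.21 in D, 0.11 in C and -0.2 in HL. The mean of the 7 ranged from 2.98 to 3.28 in WT and from 2.76 to 3.01 in *gnat2*, so that the groups overlapped. The number of guard cells and the RNA per guard cell were not measured in these whole rosettes, and their part was not tested. The mean of the 4 leaf markers was also lower, at 8.98 to 9.09 in WT and 8.85 to 8.97 in *gnat2*. Their differences ran from -0.55 to 0.1 with a median of -0.07. Of these 4 markers 1 was called, and 1 lay below the median of the table. The call and the difference of -0.55 were those of *CAB2*, the antenna gene described above. Its values in D lay below the median of the table, and its level is uncertain. The part of this lower mean in these results was not tested. Markers of the vasculature (0 of 6), of trichomes and epidermis (0 of 5), of dividing meristem (0 of 4) and of flowers (0 of 7) had no call, with 1, 0, 1 and 0 at an unadjusted p under 0.05, and of the root markers *EXPA7* alone passed.

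Among the tRNA, snoRNA and long noncoding RNA transcripts, those that passed were higher in *gnat2* with 1 exception. Of 61 nuclear tRNA genes on the array 11 were higher and 0 lower (18%, against 3.75% of 26486 protein-coding transcripts), of 68 snoRNAs 9 were higher and 0 lower (13.2%), and of 222 long noncoding RNAs 23 were higher and 1 lower (10.8%). Of 92 transcripts of the mitochondrial genome, 15 were higher and 4 lower (20.7%), and of 14 of the plastid genome 1 was higher. These counts depended on single arrays. For tRNAs 7 were higher without *gnat2* D replicate 3 or 4 or WT D replicate 4. For snoRNAs 3 to 5 were higher without any 1 array other than WT D replicate 2 or 4. For long noncoding RNAs 7 were higher without *gnat2* D replicate 3, 12 without *gnat2* D replicate 1, 13 without WT D replicate 3 and 15 without replicate 4 of either genotype. For the mitochondrial genome 9 were higher without *gnat2* D replicate 3. The medians of these classes were 0.27, 0.13, 0.14, 0.20 and 0.06. A mean below the table's median was found for 37 tRNAs, 22 snoRNAs, 112 long noncoding RNAs and 20 mitochondrial transcripts. At such levels a signal above background was not shown. Averaged over all members, the tRNA class was at 2.659, 2.736, 2.595 and 2.554 on the WT arrays and at 3.005, 3.060, 3.023 and 3.127 on the *gnat2* arrays. The array means did not overlap between the genotypes for the tRNA, snoRNA, lncRNA, mitochondrial and plastid classes. Those of protein-coding transcripts did not overlap either, at 3.207 to 3.209 in WT and 3.203 to 3.204 in *gnat2*. Absence of overlap was therefore not particular to these classes. With cyclic loess normalization the median of the plastid class was 0. The medians in C and HL were 0.34 and 0.30 for tRNAs, 0.34 and 0.27 for snoRNAs and 0.19 and 0.11 for the mitochondrial genome. Retention of short RNA in the extracts and the share of rRNA were not measured, and their part in these differences was not tested. Other classes did not share this direction. Of 174 microRNA precursor genes 2 were higher and 4 lower (3.45%), with a median of -0.12, and their array means lay wholly below WT in *gnat2*, at 1.547 to 1.604 against 1.626 to 1.66. Of the 174, 156 had a mean below the table's median, so that most were not shown to be above background. Of 165 other noncoding RNAs 4 were higher and 1 lower (3.03%), with a median of -0.02. Of 13 snRNAs and 3 antisense RNAs 0 were called, with medians of 0.01 and -0.22.

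The largest rise of all was that of the tRNA gene AT5G58495, at 2.96, 1.64, 2.41 and 1.57 in WT and at 4.13, 4.36, 4.2 and 4.12 in *gnat2* (difference 2.06, standard error 0.33, adjusted p = 0.0014). It was kept in 8 of 8 refits. AT4G16235, another tRNA gene, differed by 1.54 (adjusted p = 0.030), with a WT range from 3.23 to 5.61 and a call kept in 2 of 8 refits (0.107 without WT D replicate 3). ATCG00230, of the plastid genome, was at 6.23, 6.60, 5.65 and 6.0 in WT and at 7.59, 7.79, 7.54 and 7.69 in *gnat2* (difference 1.54, standard error 0.18, adjusted p = 6.5e-05), and it was called in C (1.21) and HL (1.09) too. The snoRNA AT1G07702 was at 3.68, 4.37, 3.66 and 3.29 in WT and at 5.54, 4.98, 5.0 and 5.18 in *gnat2*, and its differences of 1.43, 1.39 and 1.27 in D, C and HL were alike. In the long noncoding RNA AT5G67488 the difference was 1.29 (adjusted p = 5.2e-05), with 3.05, 3.21, 2.96 and 3.02 in WT and 4.31, 4.17, 4.33 and 4.61 in *gnat2*, and here C (0.20) and HL (0.37) were smaller than D without a call for the difference between lights.

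The mitochondrial transcripts did not move as one. ATMG00880 was higher by 1.53 (adjusted p = 0.0060), with 1.5, 2.35, 1.61 and 2.19 in WT and 3.38, 3.56, 3.11 and 3.71 in *gnat2*, and ATMG01070 by 1.49 (adjusted p = 0.00028). The 4 lower ones, ATMG00080, ATMG00090, ATMG00980 and ATMG01200, had differences from -0.46 to -0.35. ATMG00080 and ATMG00090 carry nearly the same values, and so do ATMG00170 and ATMG00620 among the higher ones, so that each pair may be 1 signal counted under 2 names. ATMG01070 carries nearly the same values as the nuclear tRNA gene AT2G07743, and ATMG00230 nearly the same as the nuclear tRNA gene AT2G07757. Both tRNA genes are among the 11 tRNA calls, so that organelle and nuclear copies cannot be told apart. ATMG01260, ATMG00540 and ATMG00980 have such partners as well, and partners with low values were not searched for in full. *MIR156d* (AT5G10945), a precursor of the miRNA that restrains SPL factors of phase change, was at 3.24, 3.46, 3.15 and 2.68 in WT and at 4.53, 3.98, 4.1 and 4.37 in *gnat2* (difference 1.11, standard error 0.16, adjusted p = 0.00064). *MIR162b* (AT5G23065), whose miRNA targets *DCL1*, was lower by -1.03 (adjusted p = 0.014, lost without WT D replicate 3) and *MIR166c* (AT5G08712), whose miRNA targets class III HD-ZIP genes, by -0.60 (adjusted p = 0.0037), both near or below the median of the table.

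**Figure D4:**
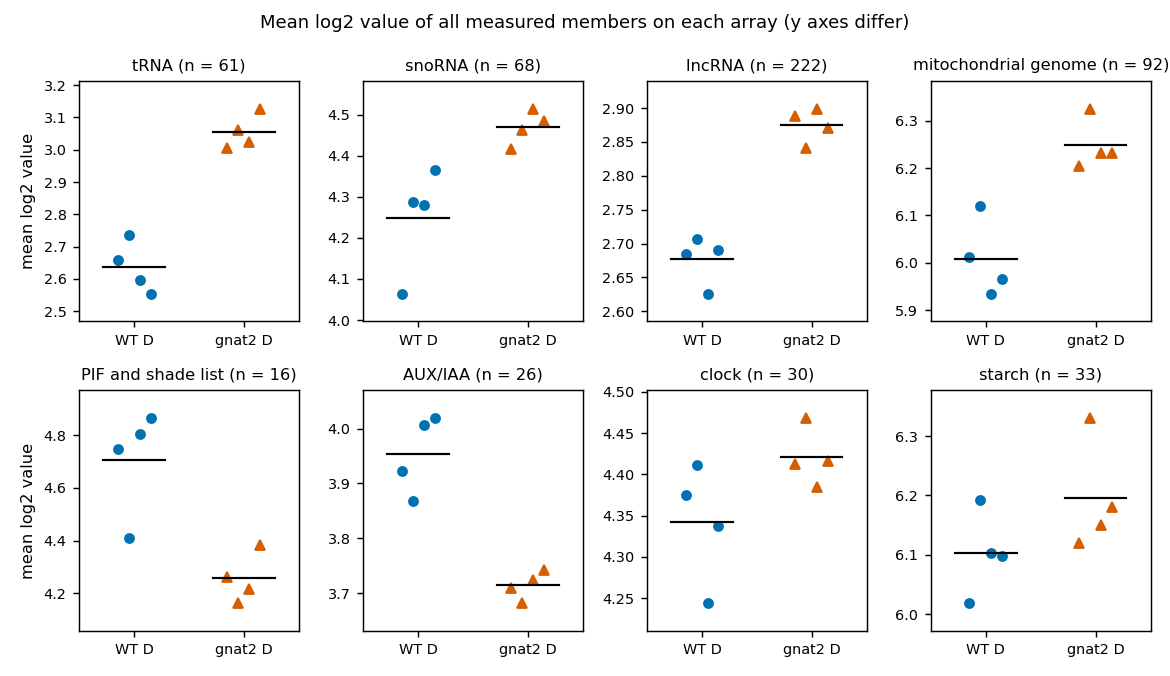
Mean log2 value over all measured members of a class or list (y axis, scales differ) on each of the 4 WT and 4 *gnat2* arrays in D, with the mean of each group as a line. The groups are apart, with *gnat2* above WT, for tRNA, snoRNA, lncRNA and mitochondrial transcripts and, with *gnat2* below WT, for the PIF and shade list and the AUX/IAA family, whereas they overlap for the clock and starch lists. The PIF and shade list and the AUX/IAA family share *IAA19* among their calls.

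Darkness was then set beside the other lights, to see which genotype differences belonged to D. In C 361 transcripts (1.3%) and in HL 533 (1.92%) differed between the genotypes. Of the 1090 in D, 123 were also called in C (11.3% of the D list and 34.1% of the C list), 122 of them in the same direction. With HL, 106 were shared (9.72% of the D list and 19.9% of the HL list), 101 in the same direction. All 45 transcripts called in each of the 3 lights kept their direction. The remaining 906 were called in D alone, which does not show that they differed from the other lights: 5 of them passed the test of D against C and 12 the test of D against HL. In C, 952 of the 1090 had the sign they had in D, with a median of 0.257 towards it, and in HL 900, with a median of 0.204.

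The genotype difference in D differed from that in C for 8 transcripts (0.0288%), 5 (0.018%) with a higher and 3 (0.0108%) with a lower difference in D, and from that in HL for 32 (0.115%), 9 (0.0323%) higher and 23 (0.0827%) lower. AT4G26290 was the 1 transcript in both sets. Its difference of 1.92 in D stood against -0.15 in C and 0.04 in HL. The mean of *gnat2* was 4.31 in D but 2.27 and 1.52 in the other lights, and the D minus C value was 2.07 (adjusted p = 0.022) and the D minus HL value 1.88 (adjusted p = 0.021). AT1G10690 differed by 1.34 in D and -0.23 in C (adjusted p of the difference 0.022). *FBS2* (AT4G21510), an F-box protein induced by stress, was at 2.73, 2.77, 2.93 and 2.92 in WT and at 4.21, 4.12, 3.26 and 4.38 in *gnat2* in D, a difference of 1.16 against -0.50 in C (adjusted p of the difference 0.046). In the opposite direction, *DOGT1* (AT2G36800), which glucosylates brassinosteroids, differed by -0.81 in D and 0.74 in C, both of them called (adjusted p of the difference 0.033), although the D call was lost without *gnat2* D replicate 2 (adjusted p = 0.057). *NRP2* (AT1G18800), a NAP-type histone chaperone, had -0.49 in D, which did not pass, and 0.85 in C, which did. The D minus C count of 8 was 0 without *gnat2* D replicate 1 or 4 or WT D replicate 3 and 1 without *gnat2* D replicate 3.

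Of the 32 that differed from HL, 14 were called in D but not in HL, 13 in HL but not in D, and 5 in both lights with opposite signs. AT5G16110 was one of the latter, at 0.47 in D and -0.76 in HL (adjusted p of the difference 0.0050), and *ECIP1* (AT4G24800) another, at 0.45 and -0.55. AT1G52855 and AT2G20940 had the reverse order, with -0.67 and -0.58 in D and 0.95 and 0.58 in HL. The D calls of these 4 were kept in 5, 3, 2 and 5 of 8 refits. *CSDP1* (AT4G36020), a cold shock domain protein, was at 4.74, 4.96, 4.65 and 4.59 in WT and at 4.19, 4.13, 4.00 and 3.87 in *gnat2* in D. Its difference of -0.69 was called and kept in 8 of 8 refits, while that of 0.21 in HL was not called. AT3G44450 likewise differed by -0.75 in D and 0.38 in HL. For AT4G12735, *ChlAKR* (AT2G37770), an aldo-keto reductase that detoxifies carbonyls, AT1G75580 and AT5G64230, the difference lay in HL, at 2.55, 1.35, 1.29 and 1.00, and the differences in D were -0.35, -0.12, -0.19 and -0.17 without a call. The D minus HL count of 32 was 15 and 18 without *gnat2* D replicate 3 and 4, and 52 without WT D replicate 2.

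**Figure D5:**
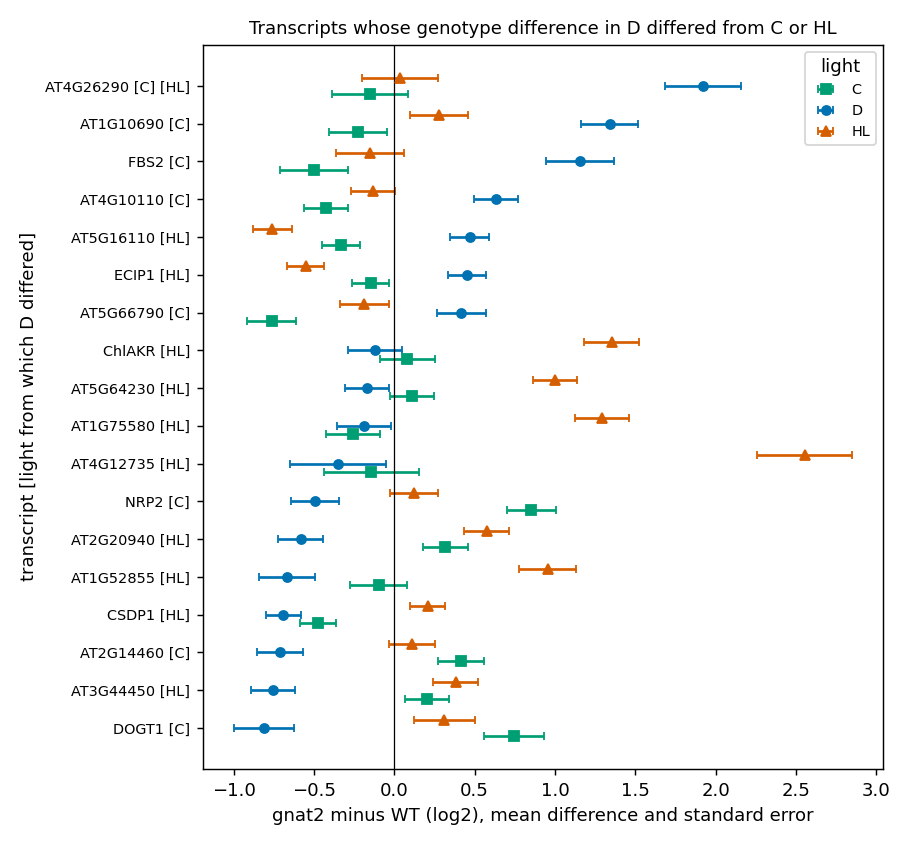
Difference between *gnat2* and WT (x axis, log2, bars are standard errors from limma) in C, D and HL for 18 transcripts whose difference in D differed from that in C or in HL, marked in brackets after the name. AT4G26290, AT1G10690 and *FBS2* stand apart in D at 1.92, 1.34 and 1.16, while AT4G12735 stands apart in HL at 2.55.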

How the data were processed

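The authors hybridized RNA of WT and *gnat2* rosettes to Affymetrix Arabidopsis gene arrays, grouped the probes by TAIR gene through a custom chip definition, corrected the background by RMA and brought the arrays to 1 distribution by quantiles, and they deposited 1 log2 value per transcript and array. Quantile normalization removes differences in total RNA, and no raw intensities were used here. All 27826 transcripts of the 24 arrays were fitted with limma 3.58.1 in R 4.3.3, with 1 mean per genotype and light (18 residual and 6.05 prior degrees of freedom), two-sided tests and Benjamini-Hochberg adjustment within each comparison. The methods of the study name a one-way ANOVA, and the contrasts here come from the same group means. With 4 arrays per group, their number bounds the precision. The study describes 4 separate biological replicates, harvested from single plants.

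Transcript names and classes come from RefSeq (TAIR10.1), which lists 27241 of them. RefSeq positions served only for the order of genes around *GNAT2* and the overlap with *PRK*, and no sequence or promoter motif was analysed here. Lists hold genes that RefSeq pairs with their name, and 20 entries were left out for lack of it. The members, lists and named genes were chosen with earlier results of these data known. Named are *GNAT2* and its neighbours within 10 genes, the 12 largest rises and falls among called protein-coding transcripts without overlap between the groups, the 3 largest among other transcripts, up to 5 called members per list with single uncalled ones beside them, and up to 10 transcripts per difference between lights. *AT1G07702*, *AT5G67488*, *MIR156d* and the mitochondrial genes were picked with their values in view. One transcript that the rule names is not reported here. The script was tested on simulated data.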

Additional observations from a re-analysis of the deposited data

Results flagged for a closer look

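In 8 of 198 groups of 4 arrays, which are the WT and *gnat2* arrays in D of 99 named transcripts, 1 array lay far from the other 3, with a gap over 0.829 of the range of the group. Chance flags about 1 in 20 groups. In WT D, replicate 4 was low for AT5G19570, at 1.74, and for *BT2*, at 9.10, replicate 1 was high for AT4G18205, at 6.34, and replicate 3 was high for AT1G32140, at 1.60. In *gnat2* D, replicate 4 was high for AT5G14820, at 5.38, and for AT1G32030, at 1.79, and low for *CRY2*, at 6.95, and replicate 3 was high for *ACS12*, at 5.58.

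For 19 named transcripts the genotype difference in D differed from that in another light, by a test of the difference itself. Against C, the difference was higher in D by 2.07 for AT4G26290, 1.57 for AT1G10690, 1.65 for *FBS2*, 1.18 for AT5G66790 and 1.06 for AT4G10110. It was lower in D than in C, at -1.35 for *NRP2*, -1.55 for *DOGT1* and -1.13 for AT2G14460. Against HL, it was higher in D by 1.88 for AT4G26290, 1.23 for AT5G16110 and 1.00 for *ECIP1*. It was lower in D than in HL, at -1.23 for AT2G28720, -2.90 for AT4G12735, -1.62 for AT1G52855, -1.49 for AT1G75580, -1.47 for *ChlAKR*, -1.17 for AT5G64230, -1.16 for AT2G20940, -1.14 for AT3G44450 and -0.90 for *CSDP1*.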

How the results depend on the processing

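The count of 1090 transcripts (564 higher, 526 lower) was 143 (86 and 57) with only the arrays compared, 5241 (2542 and 2699) with no adjustment and 81 (65 and 16) with a limit of 2-fold. Leaving out single D arrays gave 585 to 1260 transcripts, 311 to 650 higher and 274 to 610 lower. It lay between 828 and 1247 under the other alternatives (replicate block, no moderation, intensity trend, array weights, low transcripts left out, cyclic loess, a common median, adjustment over 3 contrasts). Cyclic loess moved the split to 638 higher and 405 lower. A replicate block gave 1247, and 1040 of these were among the 1090. Deviations of same-numbered arrays correlated at 0.207, 0.24, 0.0705 and 0.0716, and those of differently numbered arrays at -0.146 to 0.0745. The first 2 of these values lay above every pair of different numbers. The labels do not state a pairing, and the main fit used none. The D minus C count of 8 was 3 with the replicate block, 0 with only the arrays compared and with no moderation (2095 at an unadjusted p under 0.05 in the main limma fit), 5 with the intensity trend and with array weights, and 0 to 7 without single arrays. The D minus HL count of 32 was 20 with no moderation, 2518 with no adjustment and 15 to 52 without single arrays. *GNAT2* stayed between -4.25 and -3.96 and past the threshold in each of these fits. Of 79 other named transcripts called in D, 0 changed direction in any fit, 28 remained called with only the arrays compared, 75 with the replicate block and 47 to 70 without single arrays. No promoter analysis was run. Values under about 2 may lie at background, for which the table holds no measure.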
